A study of Rattus norvegicus with 71 samples.

Results

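The 10 genes of the BACH and NRF2 antioxidant axis were followed in the brains of rat pups exposed before birth to maternal autoantibodies. They were taken by symbol from a table of 17494 genes: Bach1 and Bach2, the activator gene Nfe2l2 and its regulator Keap1, the small Maf partners Mafg and Mafk, and the target genes Hmox1, Nqo1, Gclm and Gclc. All 10 were present and passed every filter on low counts. Bach1 and Bach2 were picked for their difference from controls in offspring exposed to CRMP1+CRMP2 or LDHA/B+CRMP1+STIP1, so those differences are described here without a test. The other 8 genes were added as known partners and targets of the axis, with earlier results of these data in view.

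The 71 libraries each came from 1 wild-type Sprague-Dawley pup on postnatal day 2, from a coronal slice of about 150 µm through the hippocampal formation with neighbouring cortical and subcortical tissue. Dams had been immunized before pregnancy with peptides of 1 of 4 antigen patterns in Freund's adjuvant, and control dams received saline with the same adjuvant. The patterns, named for target proteins of maternal autoantibodies related to autism (MARA), were LDHA/B+CRMP1+STIP1 (25 pups, 9 litters), CRMP1+CRMP2 (8 pups, 4 litters), CRMP1+GDA (6 pups, 3 litters) and STIP1+NSE (8 pups, 4 litters), beside 24 saline control pups of 7 litters. Sample titles fall into a pair of naming series, called batch 1 (28 pups) and batch 2 (43 pups) here, which the labels do not name as batches. Of the controls, 12 were in batch 1 with 16 LDHA/B+CRMP1+STIP1 pups, and batch 2 contained the other 12 controls, 9 LDHA/B+CRMP1+STIP1 pups and all pups of the other 3 patterns. The exposure was given to the dam, whereas the animals counted in the tests are pups, so littermates share a treated mother.

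BACH1, BACH2 and NRF2 (the product of Nfe2l2) are CNC-type basic leucine zipper proteins that bind DNA only when paired with a small Maf protein such as MAFG or MAFK. Both BACH proteins repress, and NRF2 activates, genes that carry an antioxidant response element. Heme binds BACH1 and releases it from DNA, which is best known for derepressing Hmox1. KEAP1 holds NRF2 in the cytoplasm for degradation until oxidants or electrophiles modify it. BACH2 is studied most in lymphocytes and is also expressed in neurons.

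Matches to the shared element were sought close to the start of these genes. RefSeq promoter windows of the rat assembly GRCr8 were used, from 250 bases before to 50 bases after the annotated start. Windows were available for 9 of the 10 members, the exception being Hmox1. The core of the antioxidant response element was searched as TGACNNNGC and the related AP-1 element as TGAGTCA, both on either strand. The antioxidant core was present in 3342 of 27457 rat promoter windows (12.2%) and in 3 of the 9 members, Gclm, Mafk and Nfe2l2. The AP-1 letters were present in 1245 windows (4.53%) and in 1 member, Bach1. The stretches around these 4 matches are shown 5′ to 3′ on the strand of the gene, with the match in capitals.
Gclm: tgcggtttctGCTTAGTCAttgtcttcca
Mafk: gatcccggaaGCGGTGTCAgtactgggga
Nfe2l2: ctgctccgactagccatTGACGCCGCctc
Bach1: gcggagggagTGAGTCAcctgaccgccgc
In GRCr8 these stretches lie at chr2:213031953-213031981 on the plus strand (Gclm), chr12:19959215-19959243 on the minus strand (Mafk), chr3:81028950-81028978 on the minus strand (Nfe2l2) and chr11:40425740-40425768 on the plus strand (Bach1). The Gclm and Mafk matches read TGACNNNGC on the opposite strand, and the first capital stands 172 and 41 bases before the start, at -172 and -41. The Nfe2l2 and Bach1 matches lie downstream of it, from base 39 and base 30. A match is a description of letters in these windows and no binding was measured. Sequence outside the windows was not searched, so a member without a match may carry the element elsewhere.

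Library totals ran from 24880182 to 36234952 assigned counts, so 1 CPM (library-size-scaled count) stood for 24.9 to 36.2 counts. CPM values given here were scaled by trimmed mean of M values (TMM) factors. Even the member with the fewest counts, Hmox1, had 46 to 398 counts per pup (median 144), and Keap1, the member with the most, had 1763 to 2993 (median 2203). Markers of thalamus and choroid plexus differed widely between the batches and within batch 2. The sum of 4 thalamic markers had a median of 64.1 CPM in batch 1 controls and 732 CPM in batch 2 controls, and it lay under 200 CPM in 5 exposed pups of batch 2. In bulk tissue, fewer cells of a type and less RNA per cell cannot be told apart.

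Levels were compared between genes per length, as CPM divided by gene length in kilobases (RPKM), over all 71 pups. Mafg (26.7 ± 3.0, SD, n = 71) and Keap1 (24.4 ± 1.8) were the most abundant and lay within each other's spread. Gclc (17.6 ± 2.6), Bach2 (14.5 ± 3.9), Bach1 (14.4 ± 2.0) and Gclm (14.2 ± 1.5) followed, each neighbour within the spread of the next. Mafk (7.08 ± 0.81) and Nqo1 (5.53 ± 1.4) came next, and Nfe2l2 (3.90 ± 0.88) and Hmox1 (3.40 ± 1.3) were lowest and overlapped. The transcript of the activator NRF2 was thus present at a lower level per length than that of either BACH repressor in this tissue.

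Bach1 maps to the plus strand of rn7 chr11:26939480-26972447 (5 exons in the count table). In batch 1, its level in controls ran from 39.0 to 58.7 CPM (median 46.5), and in LDHA/B+CRMP1+STIP1 pups from 45.4 to 59.2 CPM (median 53.5). The groups overlapped, with 15 of 16 exposed pups above the control median and 2 above the highest control. In batch 2, controls ran from 35.5 to 45.4 CPM (median 42.1) and LDHA/B+CRMP1+STIP1 pups from 41.8 to 56.1 CPM (median 45.3). CRMP1+CRMP2 pups ran from 42.7 to 58.5 CPM (median 45.6). All 8 of them lay above the control median and 4 of 8 above every control of the batch. STIP1+NSE pups (35.6 to 47.5 CPM, median 41.9) and CRMP1+GDA pups (37.3 to 45.3 CPM, median 39.7) stood in the control range apart from 1 STIP1+NSE pup. Group means ± SD in batch 2 were 40.99 ± 3.1 CPM in controls (n = 12), 47.2 ± 5.3 in LDHA/B+CRMP1+STIP1 (n = 9), 48.3 ± 5.8 in CRMP1+CRMP2 (n = 8), 40.2 ± 3.0 in CRMP1+GDA (n = 6) and 41.5 ± 3.9 in STIP1+NSE (n = 8).

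Bach2 maps to the plus strand of rn7 chr5:46717021-46977879 (6 exons). It varied more between animals than Bach1. Batch 1 controls ran from 37.8 to 92.6 CPM (median 47.6) and LDHA/B+CRMP1+STIP1 pups from 46.8 to 91.3 CPM (median 62.1). In batch 2, controls ran from 34.7 to 71.7 CPM (median 42.1), LDHA/B+CRMP1+STIP1 pups from 40.2 to 86.5 CPM (median 54.9) and CRMP1+CRMP2 pups from 42.2 to 101.9 CPM (median 53.8). Most exposed pups of these groups lay above the control median of their batch (15 of 16, 8 of 9 and 8 of 8), but only 0, 1 and 2 of them lay above the highest control. STIP1+NSE pups (34.5 to 56.5 CPM, median 48.0) and CRMP1+GDA pups (39.2 to 68.6 CPM, median 42.1) had no pup above the highest control.

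**Figure D1:**
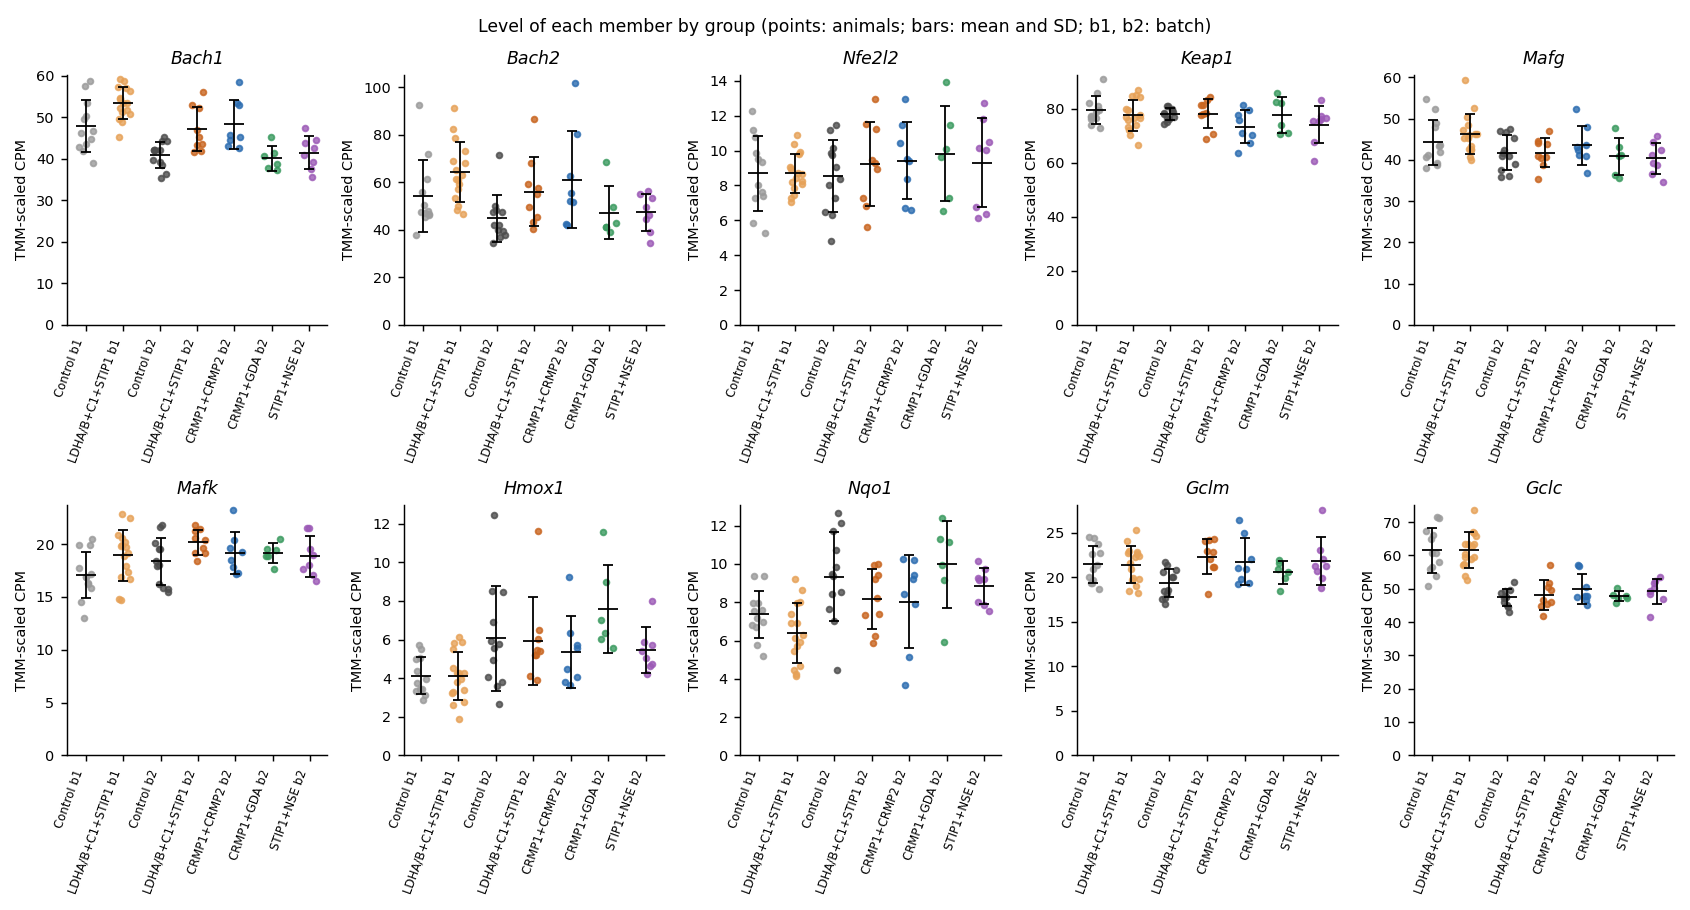
Level of each of the 10 members in TMM-scaled CPM (vertical axes from 0) in every pup, by autoantibody pattern and batch (b1, b2), with bars for mean and SD. Bach1 and Bach2 stand higher in CRMP1+CRMP2 and LDHA/B+CRMP1+STIP1 pups than in controls of the same batch, with wide overlap. Gclc differs between the batches with some overlap, at a mean of 61.5 CPM in batch 1 controls and 47.4 CPM in batch 2 controls.

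The litter means of both genes showed which families carried the difference. In CRMP1+CRMP2, mean Bach1 was 51.6 CPM in litter 9_6, 49.4 CPM in litter 9_11, 48.1 CPM in litter 9_1 and 44.3 CPM in litter 9_16. Mean Bach2 followed the same first and last place, with 77.0 CPM in litter 9_6, 65.9 CPM in litter 9_1, 59.1 CPM in litter 9_11 and 42.4 CPM in litter 9_16. Litter 9_16 thus lay inside the range of batch 2 control litters, which was 37.5 to 43.5 CPM for Bach1 and 39.6 to 51.7 CPM for Bach2, for Bach2 but just above it for Bach1. In batch 2 LDHA/B+CRMP1+STIP1, litter 9_4 (54.2 CPM Bach1, 63.6 CPM Bach2) and the single pup of litter 9_24 (53.1 and 86.5 CPM) were high. Litters 9_19 (42.7 and 42.8 CPM) and 9_9 (43.5 and 56.2 CPM) were low in Bach1. In batch 1, all 4 LDHA/B+CRMP1+STIP1 litters had a mean Bach1 of 50.3 to 55.4 CPM, against 43.9 to 51.3 CPM in the 3 control litters. Mean Bach2 in batch 1 ran from 55.98 to 71.2 CPM in the exposed litters and from 44.8 to 67.8 CPM in the control litters. Control litters IgG1 and IgG2 lay below every exposed litter in Bach2. Control litter RNA4 (67.8 CPM) lay above all exposed litters other than IgG3 (71.2 CPM).

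Littermates also differed from each other. In litter 9_6 the 2 pups had 58.5 and 44.6 CPM of Bach1 and 101.9 and 52.1 CPM of Bach2, and in litter 9_1 they had 53.4 and 42.7 CPM of Bach1 and 80.2 and 51.6 CPM of Bach2. The higher pup of each litter was 1 of the 5 batch 2 pups with a low thalamic marker sum, at 197 CPM in litter 9_6 and 58.9 CPM in litter 9_1. These pups also had the highest summed markers of excitatory cortical neurons of the group (1740 and 1701 CPM, against 712 to 1306 CPM in the other 6) and the lowest summed markers of astrocytes and radial glia (744 and 768 CPM, against 1124 to 1395 CPM). Both pups of LDHA/B+CRMP1+STIP1 litter 9_4 were also low in thalamic markers (95.4 and 69.5 CPM), with 52.4 and 56.1 CPM of Bach1. The fifth, a STIP1+NSE pup of litter 9_2 (131 CPM), had 42.7 CPM of Bach1. Over batch 2, Bach1 had a median of 53.4 CPM in these 5 pups and 42.2 CPM in the other 38, and Bach2 68.0 and 46.9 CPM.

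In the model with 1 surrogate variable, fitted with all 24 controls, the log2 fold change of Bach1 from controls was 0.21 (SE 0.057) in CRMP1+CRMP2 and 0.15 (SE 0.034) in LDHA/B+CRMP1+STIP1. That of Bach2 was 0.46 (SE 0.12) and 0.24 (SE 0.075). These are the values that chose both genes, and they share the same control pups. In CRMP1+GDA, Bach1 stood at 0.01 (SE 0.067) and Bach2 at 0.22 (SE 0.12), and in STIP1+NSE they stood at 0.04 (SE 0.061) and 0.18 (SE 0.11). With batch and sex as covariates, Bach2 was at 0.07 in CRMP1+GDA and 0.09 in STIP1+NSE. Without litter 9_8 it was at 0.10 in CRMP1+GDA, and without litter 9_7 at 0.12 in STIP1+NSE. The sign of Bach1 in CRMP1+GDA turned with the setting, from -0.04 with batch and sex as covariates to 0.03 with litter as a random effect. Without the low-thalamus pups, Bach1 and Bach2 were at 0.19 and 0.30 in CRMP1+CRMP2 and at 0.14 and 0.22 in LDHA/B+CRMP1+STIP1. Leaving out 1 CRMP1+CRMP2 litter at a time gave 0.20 to 0.26 for Bach1 and 0.37 (without litter 9_6) to 0.61 (without litter 9_16) for Bach2. With batch 2 controls alone, Bach1 and Bach2 in CRMP1+CRMP2 were at 0.25 and 0.48. Within batch 1 alone, LDHA/B+CRMP1+STIP1 gave 0.16 for Bach1 and 0.25 for Bach2, and within batch 2 alone 0.20 and 0.31. The difference of this effect between batches was 0.04 (SE 0.081) for Bach1 and 0.07 (SE 0.18) for Bach2, and neither passed FDR < 0.1. The same pups chose both genes, and the SEs were not small beside the effects. The result therefore cannot show that the batches agree.

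**Figure D2:**
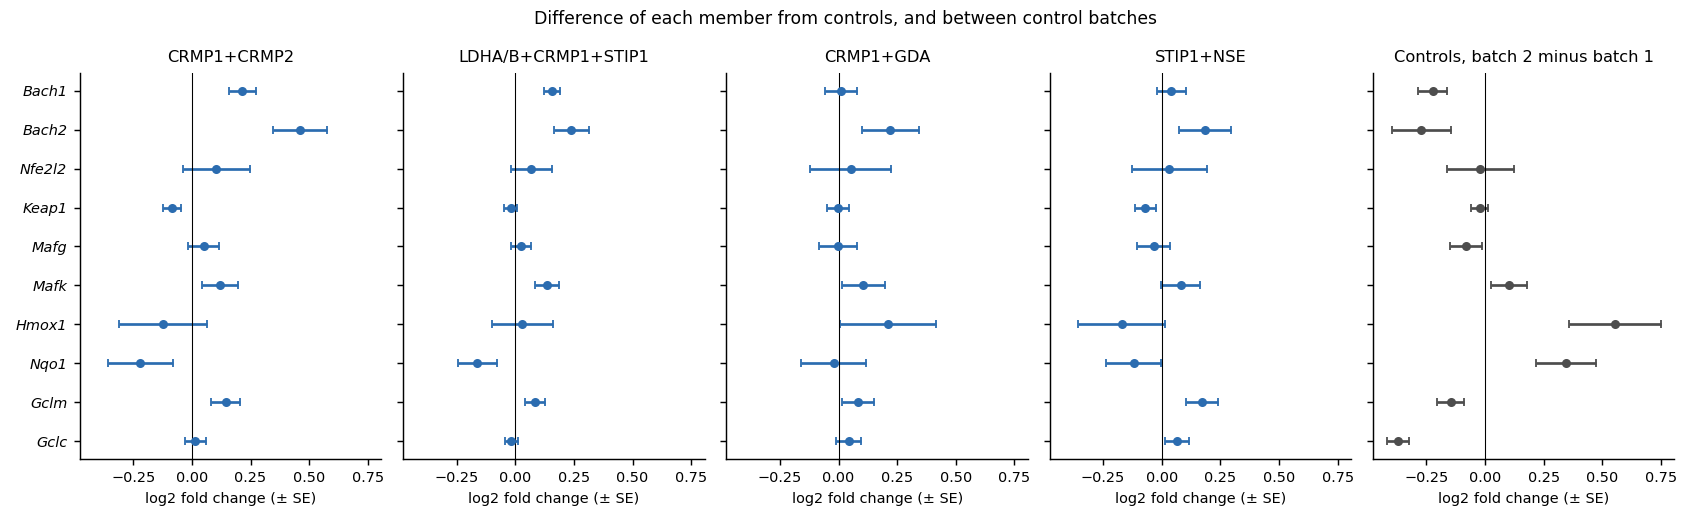
Fitted log2 fold change (horizontal axes) with SE bars for each member in the 4 autoantibody patterns against all 24 saline controls, and for controls of batch 2 against batch 1. Bach2 in CRMP1+CRMP2 stands at 0.46, while Hmox1 (0.55) and Gclc (-0.37) mark the range between the control batches.

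The next question was whether partners and targets of the BACH proteins also differed in CRMP1+CRMP2 pups. None of the 8 other members passed FDR < 0.1 in edgeR's quasi-likelihood test, where 11.4% of all genes tested did (1445 of 12691). DESeq2 also called 0 of the 8, and 2 of them, Gclm and Keap1, had an unadjusted p under 0.05. Over the 8, the middle value was 0.03 on the log2 scale, against 0.007 over all genes tested. The background rested on few pups, since 5 of 12652 genes were called without the 2 low-thalamus pups and 41 of 12653 without litter 9_6, with 0 of the 8 members called in either case. Against the controls of both batches, 7 of 8 choroid plexus and 5 of 5 pineal markers were called higher in CRMP1+CRMP2. Summed choroid plexus markers ran from 232 to 3496 CPM (median 1189) in these pups. Batch 2 controls had 161 to 2968 CPM (median 761), and batch 1 controls a median of 38.1 CPM. Over the 5 groups of batch 2, 0 of the 8 choroid plexus and 0 of the 5 pineal markers passed. The summed pineal markers were at 235.5 and 66.9 CPM in 2 of the 8 pups and at 4.41 to 6.80 CPM in the other 6, against 2.70 to 8.13 CPM in batch 2 controls. The part of these markers in the members' values was not tested. Without litter 9_16, the litter with the lowest Bach1 and Bach2, 2 members passed, Gclm (adjusted p = 0.0369) and Keap1 (adjusted p = 0.0446), in a fit that called 2889 of 12678 genes. At the level of the litter, 0 of 12363 genes were called with counts summed per litter (1381 had an unadjusted p under 0.05) and 33 of 12691 with litter as a random effect, and 0 of the 8 members in either.

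Gclm, the modifier subunit of the enzyme that starts glutathione synthesis (rn7 chr2:210347482-210367537, plus strand, 7 exons), ran from 19.2 to 26.4 CPM in CRMP1+CRMP2 pups (median 20.98), against 17.03 to 21.7 CPM in batch 2 controls (median 19.3) and 18.6 to 24.5 CPM in batch 1 controls (median 21.1). Of the 8 exposed pups, 3 lay above every batch 2 control, and the exposed range overlapped that of both control batches. It stood 0.14 above controls on the log2 scale (SE 0.063, adjusted p = 0.155). Gclc, the catalytic subunit of the same enzyme (rn7 chr8:78630127-78668546, plus strand, 16 exons), was at 0.02 (SE 0.044, adjusted p = 0.854).

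Keap1, the adaptor that targets NRF2 for degradation (rn7 chr8:19768375-19777862, minus strand, 6 exons), ran from 63.8 to 81.4 CPM in CRMP1+CRMP2 pups (median 73.6), and 4 of 8 lay below the lowest batch 2 control (74.3 CPM). Its log2 fold change was -0.09 (SE 0.039, adjusted p = 0.171). Nfe2l2 itself (rn7 chr3:60594245-60621671, minus strand, 5 exons) ran from 6.58 to 13.0 CPM, and batch 2 controls from 4.79 to 11.5 CPM. At 0.10 (SE 0.14, adjusted p = 0.67), its difference was smaller than its standard error.

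Hmox1, which opens the heme ring and is the classical BACH1 target (rn7 chr19:13467258-13474079, plus strand, 5 exons), ran from 3.66 to 9.26 CPM in CRMP1+CRMP2 pups and from 2.65 to 12.5 CPM in batch 2 controls, with the exposed range inside the control range. Its log2 fold change was -0.13 (SE 0.19, adjusted p = 0.698). Nqo1, a quinone reductase (rn7 chr19:35295633-35310528, minus strand, 6 exons), ran from 3.65 to 10.3 CPM against 4.44 to 12.6 CPM, which gave -0.22 on the log2 scale (SE 0.14, adjusted p = 0.321). The lowest 2 Nqo1 values of CRMP1+CRMP2, 3.65 and 5.15 CPM, belonged to the 2 low-thalamus pups with the highest Bach2. Mafg (rn7 chr10:105906575-105911755, minus strand, 3 exons) and Mafk (rn7 chr12:14834628-14845345, minus strand, 3 exons) stood at 0.05 (SE 0.067, adjusted p = 0.665) and 0.12 (SE 0.077, adjusted p = 0.339).

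In LDHA/B+CRMP1+STIP1, the largest group, 0 of the 8 members passed FDR < 0.1, where 0.0157% of genes did (2 of 12700). DESeq2 called 0 of the 8 as well. Mafk was the 1 member with an unadjusted p under 0.05 (log2 fold change 0.13, SE 0.052, adjusted p = 0.525). It ran from 14.7 to 22.9 CPM in exposed pups of batch 1 (12 of 16 above the control median) and from 18.4 to 21.8 CPM in those of batch 2 (9 of 9 above it), inside or overlapping the control ranges of 13.0 to 20.5 and 15.5 to 21.9 CPM.

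Nqo1 in LDHA/B+CRMP1+STIP1 stood at -0.16 (SE 0.082, adjusted p = 0.706), with means of 6.38 ± 1.6 CPM against 7.37 ± 1.2 CPM in batch 1 and 8.18 ± 1.6 against 9.34 ± 2.3 CPM in batch 2. Gclm stood at 0.08 (SE 0.042, adjusted p = 0.699), with unlike values in the batches. In batch 1 the means were 21.4 ± 2.1 CPM in both groups, whereas in batch 2 they were 22.3 ± 2.0 CPM in exposed pups and 19.3 ± 1.6 CPM in controls, with 6 of 9 exposed pups above every control. The test of that difference gave 0.21 on the log2 scale (SE 0.080, unadjusted p = 0.0133) and did not pass FDR < 0.1. No member passed that test (0 of 10), where 0.11% of genes did. Nfe2l2, Keap1, Mafg, Hmox1 and Gclc in LDHA/B+CRMP1+STIP1 pups lay between -0.02 (Keap1) and 0.07 (Nfe2l2) of the controls on the log2 scale.

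The CRMP1+GDA and STIP1+NSE groups gave 0 called members of 8 in edgeR and in DESeq2, beside 0% and 0.0474% of all genes. In CRMP1+GDA none of the 8 members had an unadjusted p under 0.05, while 462 of 12641 genes did. Hmox1 was the highest at 0.21 (SE 0.21), with pups at 5.56 to 11.6 CPM. In STIP1+NSE, 1 member had an unadjusted p under 0.05, Gclm, at 0.17 (SE 0.067, unadjusted p = 0.0148), with 7 of 8 pups above the batch 2 control median of 19.3 CPM. Gclm was thus above that median in most pups of every exposed group of batch 2 (8 of 9, 7 of 8, 5 of 6 and 7 of 8), each against the same 12 controls.

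Batch 2 litters were grouped by dam number into sets of 9_1 to 9_5, 9_6 to 9_10, 9_11 to 9_15 and 9_16 to 9_25. Each set has 1 control litter. The last set joins litters 9_16 to 9_19, a run with no control litter, to litters 9_24 and 9_25. The labels do not say that a set shares a cohort. By litter mean, Gclm was at 20.8 CPM in the control litter of the first set and 21.3 to 24.8 CPM in its 4 exposed litters. In the second set it was at 17.8 CPM, against 19.1 to 21.5 CPM in 4 exposed litters. The third set had 20.4 CPM against 20.97 to 23.03 CPM in 3 exposed litters, and the last 19.5 CPM against 19.6 to 24.2 CPM in 5. All 16 exposed litters thus had a higher mean Gclm than the control litter of their set, each set with a single control litter. The 16 comparisons share 4 control litters, and the count was not taken over all genes. The same count was 9 of 16 for Nfe2l2, 7 for Keap1 and Nqo1, 8 for Hmox1 and Mafg, 10 for Gclc and 11 for Mafk. It was 13 for Bach1 and 15 for Bach2, which were picked for their difference from controls.

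The Nfe2l2 litter means were 9.86 to 11.4 CPM in the first set, controls included, 6.45 to 8.51 CPM in the second, 6.45 to 8.11 CPM in the third and 7.96 to 12.7 CPM in the last. A fit of batch 2 with the set as a block and sex as covariate, chosen after the data were seen, called 0 of the 8 members in each of the 4 patterns, in all exposed pups and over the 5 groups. Gclm had an unadjusted p under 0.05 in each of these other than CRMP1+GDA, and Mafk in LDHA/B+CRMP1+STIP1. In that fit 1835 of 12605 genes were called in CRMP1+CRMP2, 692 of 12738 over the 5 groups, and 0 or 1 in each of the others. Gclm was at 0.15 in CRMP1+CRMP2 (SE 0.067, adjusted p = 0.165), 0.18 in LDHA/B+CRMP1+STIP1 (SE 0.052, adjusted p = 0.576), 0.16 in STIP1+NSE (SE 0.064, adjusted p = 0.537) and 0.09 in CRMP1+GDA (SE 0.059, adjusted p = 0.997). In all exposed pups of batch 2 it was at 0.15 (SE 0.046, unadjusted p = 0.00163, adjusted p = 0.317).

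All 47 exposed pups together gave 0 of 8 members called, where 0.0321% of genes were. Mafk (0.12, SE 0.041, adjusted p = 0.327) and Gclm (0.09, SE 0.037, adjusted p = 0.369) had an unadjusted p under 0.05 there, and DESeq2 called 0 of 8. A test over the 5 groups of batch 2 also gave 0 of 8, where 0.00785% of genes passed (1 of 12738), and Gclm again had the smallest adjusted p (0.623).

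Between the control batches all 10 members were tested, Bach1 and Bach2 included. The count is therefore not like those of the exposure comparisons, which covered 8. With no exposed pup in the fit, 6 of the 10 members passed FDR < 0.1, 4 of them lower and 2 higher in batch 2, where 41.5% of all genes passed (5218 of 12565). Gclc ran from 50.9 to 71.6 CPM in batch 1 controls and from 42.9 to 52.1 CPM in batch 2 controls, a log2 difference of -0.37 (SE 0.047, adjusted p = 1.06e-06). Bach1 fell by 0.22 (SE 0.062, adjusted p = 0.0064), Bach2 by 0.27 (SE 0.12, adjusted p = 0.0972) and Gclm by 0.15 (SE 0.057, adjusted p = 0.0494). Hmox1 (0.55, SE 0.20, adjusted p = 0.03) and Nqo1 (0.34, SE 0.13, adjusted p = 0.0388) rose. The ranges overlapped in each of these genes, and Nfe2l2 (-0.02), Keap1 (-0.02), Mafg (-0.08) and Mafk (0.10) did not pass.

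The batch difference rests on few litters, 3 against 4. DESeq2 also called 6 members, but with litter as a random effect 2 passed, Gclc and Bach1, and with counts summed per litter Gclc alone passed. The count was 3 when control litter 9_5, 9_25 or RNA4 was left out and 4 to 6 without any other control litter. The tissue markers moved with it. All 4 thalamic markers were called higher in batch 2 controls, by 2.09 to 5.22 on the log2 scale, and all 8 choroid plexus markers, with a median of 3.01. Of 6 markers of excitatory cortical neurons, 5 were called lower and 1 higher, with a median of -0.81, and their sum had a median of 1672 CPM in batch 1 controls and 1001 CPM in batch 2 controls. The part of these tissue differences in the members' levels was not tested.

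The share of each member's variance that lay between batches, over all 71 pups, was 67.5% for Gclc and 31.3% for Bach1, against 10.6% for the median gene, and 0.92% for Gclm and 0.68% for Nfe2l2. Nfe2l2 and Keap1 had their largest share between litters of the same group (51.7% and 48.9%, median gene 35.7%). A further 45.2% and 37.9% lay within litters, and for Nfe2l2 the 7 groups accounted for 3.11%. Males and females did not differ in any of the 10 members past FDR < 0.1 in edgeR or DESeq2, with 0 unadjusted p under 0.05, where 0.0641% of genes passed. The sex differences lay between -0.05 and 0.12 (Nqo1, SE 0.080).

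Relations between members were then examined over the means of the 27 litters, after each pattern's mean within its batch had been subtracted, which removes mean differences between the 7 groups. A family of 14 relations was computed, Bach1 with the other 9 members and Nfe2l2 with 5, with two-sided permutation p-values and Benjamini-Hochberg adjustment over the 14. Bach1 and Bach2 varied together over litters (Pearson r = 0.72, p = 0.00091, adjusted p = 0.0127, Spearman rho = 0.71, p = 0.001, n = 27). Without the 2 litters farthest from the median of Bach1, r was 0.71, and within batch it was 0.64 in the 7 litters of batch 1 and 0.74 in the 20 of batch 2.

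Litters high in Bach1 were low in Nqo1 (r = -0.62, p = 0.0036, adjusted p = 0.0252, rho = -0.63, p = 0.0036, n = 27). The relation kept its sign without the 2 farthest litters (-0.61) and in both batches (-0.78 and -0.60). Mafg went with Bach1 (r = 0.58, p = 0.00695, adjusted p = 0.0324, rho = 0.60, p = 0.00388, n = 27), at 0.65 without the 2 farthest litters and at 0.69 and 0.56 within batches. Hmox1 (r = 0.17, adjusted p = 0.522, n = 27, with -0.81 in batch 1 and 0.32 in batch 2) and Gclm (r = 0.01, adjusted p = 0.966, n = 27) showed no such relation with Bach1. Gclc had r = 0.47 (adjusted p = 0.127), which was 0.28 without the 2 farthest litters.

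**Figure D3:**
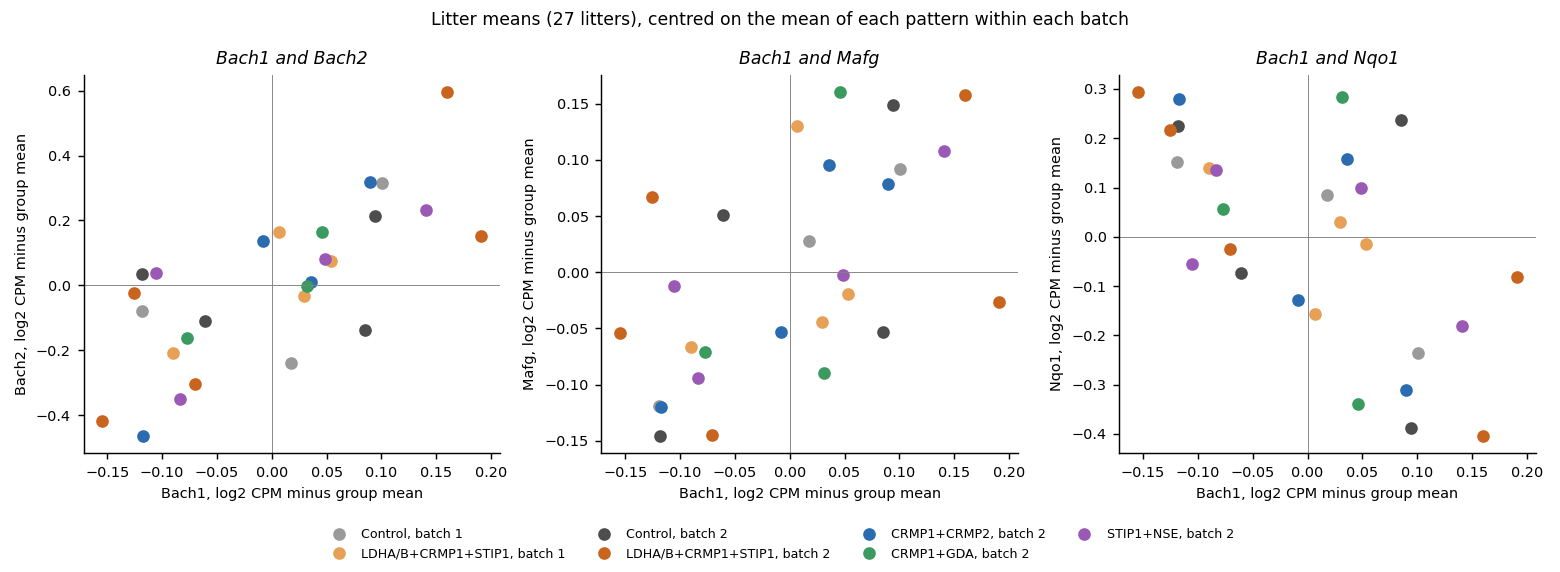
Mean log2 CPM of Bach2, Mafg and Nqo1 (vertical axes) against Bach1 (horizontal axes) in 27 litters, each value minus the mean of its pattern within its batch, coloured by group. Bach2 and Mafg run upward with Bach1 (r = 0.72 and 0.58) and Nqo1 runs downward (r = -0.62).

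For Nfe2l2, none of the 5 relations passed an adjusted p of 0.1 by Pearson r. The largest was with Gclm (r = 0.51, p = 0.03, adjusted p = 0.105, rho = 0.48, n = 27), with 0.43 left without the 2 farthest litters. Keap1 (0.45), Hmox1 (0.44), Nqo1 (0.37) and Gclc (0.35) had positive values whose adjusted p ranged from 0.127 to 0.189. In batch 1 alone, Keap1 (-0.08), Hmox1 (-0.02) and Gclc (-0.60) with Nfe2l2 were negative over 7 litters. By Spearman rho over the 27 litters, Gclm and Keap1 (rho = 0.48 for each) passed, both at an adjusted permutation p of 0.0969.

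Over the 71 pups, on the same centred scale, the members formed a pair of loose groups, described here without a test because littermates and library share what is compared. Bach1 and Bach2 had r = 0.70 with each other, and Bach2 ranked 11 among 12467 genes by likeness to Bach1, whereas Bach1 ranked 239 by likeness to Bach2. Gclc (0.50 and 0.46) and Mafg (0.42 and 0.45) lay with them. Among the same 12467 genes, Gclc ranked 441 by likeness to Bach1 and 1651 by likeness to Bach2, and Mafg ranked 916 and 1724. Nqo1 lay opposite, at -0.52 with Bach1 (rank 12190) and -0.66 with Bach2 (rank 12246), and Nfe2l2 lay with Nqo1 (0.44), Hmox1 (0.38) and Gclm (0.31). The median gene stood at -0.02 with Bach1 and -0.05 with Bach2.

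**Figure D4:**
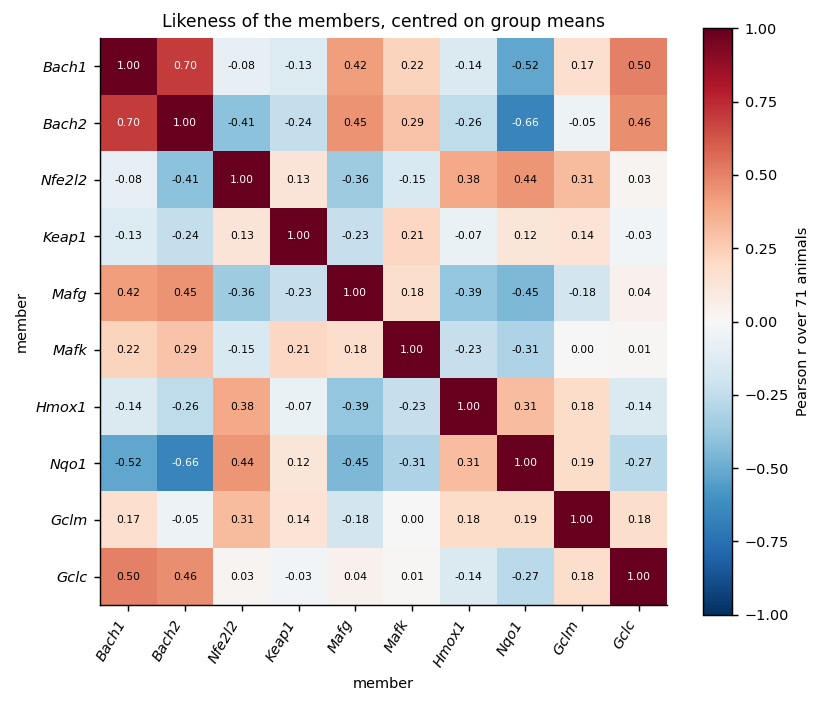
Pearson r between each pair of members over 71 pups, on log2 CPM centred on the mean of each pattern within each batch, with the colour scale from -1 to 1. Bach1 and Bach2 stand at 0.70, both are negative with Nqo1 (-0.52 and -0.66), and Nfe2l2 is at -0.41 with Bach2.

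The genes most like Bach1 in these pups were Sox5 (r = 0.75), Aff3 (0.74), Zeb2 (0.74), Eif4ebp2 (0.73) and Add2 (0.72). Sox5 and Zeb2 encode transcription factors of developing cortical neurons, Eif4ebp2 a brake on translation initiation and Add2 a subunit of the membrane skeleton protein adducin. Those most like Bach2 were Itsn1 (0.89), Celf2 (0.88), Aff3 (0.88), Plxna4 (0.87) and Myt1l (0.86), with Plxna4 a semaphorin receptor of growing axons and Myt1l a neuronal zinc finger factor. Aff3 was in both lists. All 10 of these values had the same sign in both batches. The genes were picked by r over the same pups, so this is no separate check.

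The cell type markers gave a parallel description. With the summed markers of excitatory cortical neurons, r was 0.61 for Bach1, 0.66 for Bach2 and 0.63 for Gclc, and -0.56 for Nqo1. With astrocytes and radial glia it was -0.60 for Bach1, -0.74 for Bach2 and 0.72 for Nqo1. Nfe2l2 went with endothelium (0.68) and microglia (0.62). Its values were close to these with erythroid cells (0.61), meninges and fibroblasts (0.61), choroid plexus (0.54) and border macrophages (0.54). Hmox1 went with microglia (0.48), astrocytes (0.44) and endothelium (0.43), and less with erythroid cells (0.37) and border macrophages (0.36). Neither gene thus followed a single cell type. With thalamic markers, r was -0.58 for Gclc, -0.47 for Bach1 and -0.34 for Bach2. The part of tissue composition in the relations between members was not tested.

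**Figure D5:**
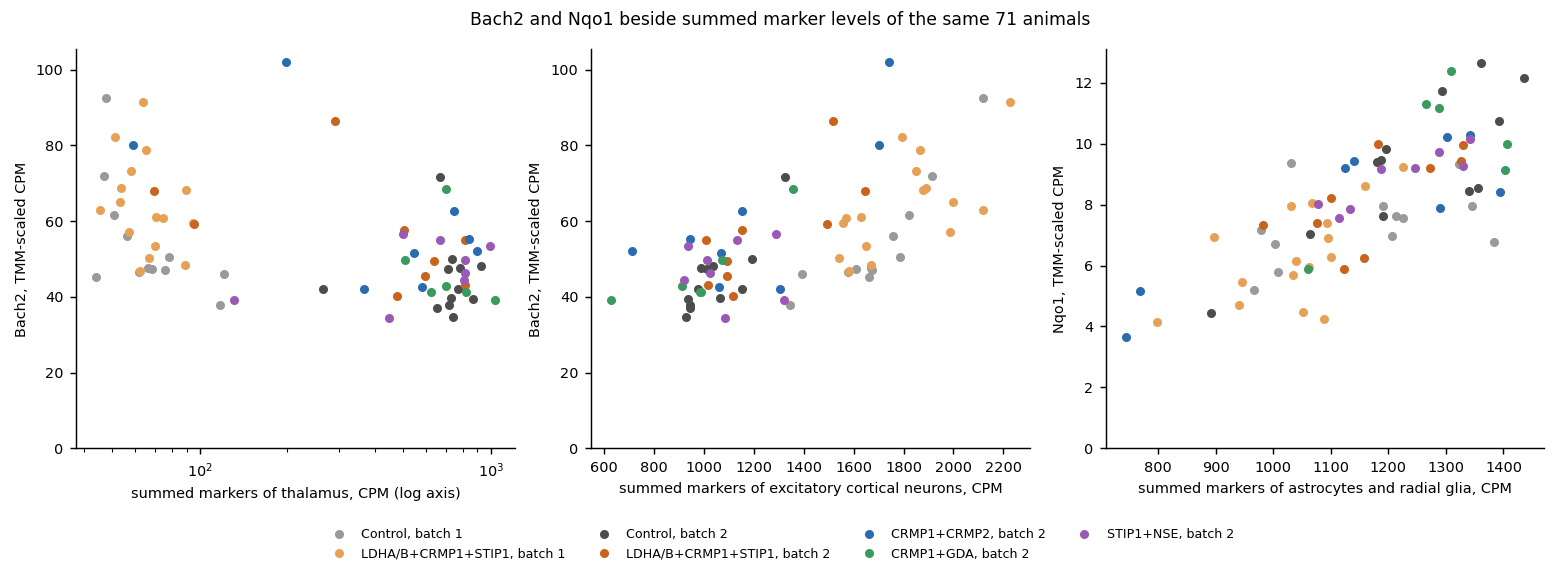
Bach2 against the summed thalamic markers (log axis) and the summed excitatory cortical markers, and Nqo1 against the summed astrocyte and radial glia markers, all in TMM-scaled CPM, 1 point per pup coloured by group. Bach2 is higher where the cortical sum is higher (r = 0.66 on the centred log2 scale), Nqo1 where the astrocyte sum is higher (r = 0.72), and 5 exposed pups of batch 2 lie below 200 CPM of thalamic markers.

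Other genes of the same pathways were read from 6 lists. In CRMP1+CRMP2 pups, against a background of 11.4% of genes called, 2 of 13 tested CNC factors, small Mafs and their regulators passed FDR < 0.1. Among them was Sqstm1, which encodes the autophagy receptor p62 that competes with NRF2 for KEAP1 (-0.24, SE 0.048, adjusted p = 0.00689). Sqstm1 ran from 267 to 383 CPM in CRMP1+CRMP2 pups (336 ± 38, n = 8), against 340 to 466.4 CPM in batch 2 controls (411 ± 34, n = 12). Batch 1 controls had 305 to 372 CPM (351 ± 19, n = 12), so the exposed mean lay within 1 SD of theirs.

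Sqstm1 was still called without the 2 low-thalamus pups (-0.26, SE 0.051, adjusted p = 0.0464), where 5 of 12652 genes were, and without the 2 pups of high pineal markers (-0.27, SE 0.052, adjusted p = 0.0517). With litter as a random effect it was 1 of 33 genes called (-0.24, SE 0.058, adjusted p = 0.0918), and with counts summed per litter it was at -0.27 (SE 0.078, adjusted p = 0.435), where 0 genes were called. Over the 5 groups of batch 2 its adjusted p was 0.583. Its values in the other patterns were -0.07 (SE 0.038) in LDHA/B+CRMP1+STIP1, -0.10 (SE 0.044) in CRMP1+GDA and -0.06 (SE 0.064) in STIP1+NSE, and none of these passed.

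Of 12 glutathione genes, 0 were called in CRMP1+CRMP2 by edgeR and 1 had an unadjusted p under 0.05, with Abcc1, an exporter of glutathione conjugates, highest at 0.35 and Gpx4, the lipid peroxidase, lowest at -0.15. Of 6 genes of NADPH supply, Me1, the cytosolic malic enzyme, fell by 0.26 (adjusted p = 0.0329). Of 9 thioredoxin and peroxide genes, Sod1 fell by 0.25 (adjusted p = 0.0940). Of 12 heme genes, 3 fell, among them Hmox2 (-0.20, adjusted p = 0.0339), the constitutive heme oxygenase, and Slc48a1 (-0.18, adjusted p = 0.0398), a heme transporter. Of 7 iron genes, 1 rose, Ireb2, an iron-responsive RNA-binding protein (0.12, adjusted p = 0.0916). Without the 2 low-thalamus pups, none of the 5 named here passed, while the values were -0.15 for Me1, -0.28 for Sod1, -0.16 for Hmox2, -0.14 for Slc48a1 and 0.11 for Ireb2. Without the 2 pups of high pineal markers none passed either, at -0.21, -0.30, -0.16, -0.18 and 0.12 in the same order. With counts summed per litter their adjusted p was 0.435, and with litter as a random effect it ran from 0.149 (Slc48a1) to 0.276 (Ireb2). With the set of dam numbers as a block, where 1835 of 12605 genes were called, Sod1, Hmox2, Slc48a1 and Ireb2 passed and Me1 did not (adjusted p = 0.161).

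No gene of the 6 lists passed FDR < 0.1 in the other 3 patterns, in all exposed pups together, between sexes, between the batches of LDHA/B+CRMP1+STIP1 or over the 5 groups of batch 2. Srxn1, which reduces overoxidized peroxiredoxins, was the lowest of its list in each pattern, at -0.34 (SE 0.18) in CRMP1+CRMP2, -0.26 (SE 0.11) in LDHA/B+CRMP1+STIP1, -0.57 (SE 0.21) in CRMP1+GDA and -0.16 (SE 0.18) in STIP1+NSE, with shared controls and no value past the threshold. Between the control batches, where 41.5% of all genes were called, 5 of 13 CNC and Maf genes, 6 of 12 glutathione genes, 5 of 6 NADPH genes, 4 of 9 thioredoxin and peroxide genes, 1 of 12 heme genes and 4 of 7 iron genes passed. The widest of these differences were Mgst1, a membrane glutathione transferase (1.35), Sod1 (0.55) and Me1 (0.51), all higher in batch 2. All 4 iron genes called were lower in batch 2, among them Ftl1, the ferritin light chain (-0.22).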

How the data were processed

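Gene counts were deposited by the authors for 71 poly-A RNA libraries as 1 table of raw counts (17494 genes), with gene positions and a length per gene. Per the study's methods, 150-base read pairs were aligned to the rat genome rn7 with STAR 2.5.4b and counted with featureCounts, whose options (strand included) are not given in the sources used here. Of the counts from 1 to 9, 74.5% were even, so read pairs may have been counted as 2, and fits on halved counts were run as an alternative. Library totals were 24880182 to 36234952, which set the counting precision, and RPKM used the deposited length column. All 71 sample columns were used.

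Groups came from the autoantibody label, batches from the title series and litters from the dam label. Each pattern was compared with all 24 controls in edgeR 4.0.16 (TMM, quasi-likelihood test, Benjamini-Hochberg FDR < 0.1) with 1 surrogate variable (sva 3.50.0), keeping genes above 1 CPM in 2 or more samples, or at 1 CPM or above in 8 or more where all pups entered. The control batches, the sexes, the difference between batches and the 5 groups of batch 2 were fitted with sex, or with the group for the sexes, as covariate. Alternatives were batch and sex as covariates, 1 batch only, sex added, DESeq2 1.42.0, other scalings, no filter, litter sums, litter as a random effect (limma 3.58.1) leaving out each litter and, added later, sets of dam numbers as a block. Each p-value of a fit on single pups without a litter term measures the spread between pups, and littermates share a dam. Those of litter sums and of correlations over litter means rest on litters, and the random effect models litter. Correlations used 100000 permutations. Some of the fits were tested on simulated counts without litter effects, with planted changes larger than those of the members. That does not cover littermates or small differences. The members and lists were chosen with earlier results of these data known. Listed genes were named where they passed, at most 4 per list, or as the list's highest and lowest. Some listed genes are not reported here. Fits used R 4.3.3.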

Additional observations from a re-analysis of the deposited data

Results flagged for a closer look

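In 4 of 40 groups of 4 to 10 pups, 1 pup stood apart from the rest of its group by Dixon's test at the 95% level, which chance alone does in about 1 in 20 groups. All 4 pups were male. Bach2 in CRMP1+GDA replicate 3 (litter 9_8) was at 68.58 CPM, above the next value of 49.7 CPM, and Bach1 was also highest of its group in this pup (45.3 CPM). This pup had the highest summed cortical neuron markers of its group (1357 CPM, the others 629 to 1072 CPM) and the lowest summed astrocyte and radial glia markers (1061 CPM). Hmox1 in STIP1+NSE replicate 3 (litter 9_7) was at 8.004 CPM, with the next at 5.853 CPM. This pup had the highest summed erythroid markers of its group (1323 CPM) and summed pineal markers of 44.6 CPM. The part of these markers was not tested. Hmox1 in LDHA/B+CRMP1+STIP1 of batch 2, replicate 5 (litter 9_14), was at 11.6 CPM, with the next at 6.508 CPM. Gclm in LDHA/B+CRMP1+STIP1 of batch 2, replicate 3 (litter 9_9), was lowest at 18.1 CPM, with the next at 21.17 CPM.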

How the results depend on the processing

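The counts of members called in the exposure comparisons, between sexes, for the difference between batches and over the groups of batch 2 stayed at 0 under every alternative run, except in CRMP1+CRMP2, where leaving out 1 litter gave 0 to 2, the 2 in a fit that called 2889 of 12678 genes. Between the control batches the main count of 6 became 1 with litter sums and 2 with litter as a random effect, and 3 to 6 with 1 litter left out. Of 14 relations over litters, 3 passed an adjusted p of 0.1, against 5 by Spearman rho, 6 without centring and 7 over pups in place of litters. The cause of these changes was not tested. No paired analysis was possible because replicate numbers were given in accession order and pair no samples. Sets of dam numbers, which the labels do not explain, were run as a block. That fit and those without pups of low thalamic or high pineal markers were chosen after seeing the data. Scaling did not turn a called member.

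Signs turned in members that were not called, most of them close to 0, on the log2 scale. In LDHA/B+CRMP1+STIP1, batch 1 alone gave Nfe2l2 -0.0018, Hmox1 -0.014, Gclm -0.00061 and Gclc 0.0046, and batch 2 alone gave Keap1 0.0022, Mafg -0.0092, Hmox1 -0.030 and Gclc 0.020. Batch and sex as covariates gave Hmox1 -0.022 and Gclc 0.0089, litter sums -0.045 and 0.015, the random effect Hmox1 -0.00046, and the sets of dams Hmox1 -0.053 and Gclc 0.014. In CRMP1+GDA, batch 2 alone gave Nqo1 0.11, the sets of dams Nqo1 0.097, batch and sex Nqo1 0.10 and Gclc -0.0024, litter sums Mafg 0.0068 and Nqo1 0.025, the random effect Nfe2l2 -0.040, Keap1 0.00017 and Mafg 0.016, no filter Keap1 0.00010, sex added Mafg 0.0065, and no high-pineal pups Nfe2l2 -0.041 and Keap1 0.0094. In STIP1+NSE, Nfe2l2 was -0.059 with the random effect and -0.047 without the low-thalamus pup. In all exposed pups, Hmox1 was -0.016 in batch 2, -0.013 with batch and sex, -0.046 with litter sums, -0.0011 with the random effect and -0.0099 without high-pineal pups, and Mafg was -0.00092 in batch 2. Between control batches, Nfe2l2 was 0.033 with litter sums, 0.029 with the random effect and 0.0078 without scaling, and Keap1 0.0027 without scaling. Between sexes, Mafg was 0.0026 with the random effect and 0.013 without scaling. The difference between batches of LDHA/B+CRMP1+STIP1 turned for Nqo1 (-0.11 with litter sums, -0.037 with the random effect), Mafk (0.0058 with the random effect, 1.0e-05 without scaling), Hmox1 (0.033 with the random effect, 0.019 without low-thalamus pups), Bach1 (-0.024) and Gclc (-0.040), both without low-thalamus pups. Over litters, Bach1 with Gclm turned to -0.021 by rho, and with Hmox1 to -0.36 without centring. Over pups, Bach1 had -0.079 with Nfe2l2 and -0.14 with Hmox1.

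With 1 litter left out, the sign turned in these ranges. Nfe2l2 ran from -0.049 to 0.20 in CRMP1+CRMP2, -0.12 to 0.31 in CRMP1+GDA, -0.088 to 0.17 in STIP1+NSE and -0.12 to 0.11 between control batches. In LDHA/B+CRMP1+STIP1, Hmox1 ran from -0.021 to 0.059 and Gclc from -0.029 to 0.0020. In CRMP1+GDA, Keap1 ran from -0.060 to 0.071, Mafg from -0.091 to 0.041 and Nqo1 from -0.11 to 0.17. The difference between batches ran from -0.024 to 0.11 for Bach1, -0.13 to 0.19 for Bach2, -0.016 to 0.23 for Nfe2l2, -0.11 to 0.0017 for Mafg, -0.088 to 0.048 for Mafk, -0.22 to 0.17 for Hmox1, -0.069 to 0.14 for Nqo1 and -0.040 to 0.047 for Gclc. Depth limits Hmox1, Nqo1 and Nfe2l2 most, with medians of 144, 224 and 256 counts.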
